A study of Mus musculus with 4 samples.

Results

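The enzymes that write and remove DNA methylation were followed in mouse C3H10T1/2 cells through 10 genes. These were the DNA methyltransferases Dnmt1, Dnmt3a and Dnmt3b, their relative Dnmt3l, the DNA-binding ubiquitin ligases Uhrf1 and Uhrf2, the dioxygenases Tet1, Tet2 and Tet3, and the glycosylase Tdg. The genes were chosen by name and not by a measured value, though with earlier results of these data known. All transcripts carrying one of the names were taken. These genes and transcripts made up 10 of the 21878 genes and 66 of the 75959 transcripts with mRNA values.

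C3H10T1/2 is a mouse embryonic mesenchymal cell line that can form muscle, fat, cartilage and bone cells. The untreated group held 2 samples (replicates 1 and 2), and the 5-AZA group held 2 samples (replicates 101 and 102). The 5-AZA samples received the cytosine analogue 5-azacytidine at 20 micromol/L for 72 hours and were then kept in fresh medium for 21 days. Stranded libraries were made from total RNA after removal of ribosomal RNA, so the values are RNA levels and neither DNA methylation nor protein was measured. No culture time was given for the untreated samples, so treatment and time in culture cannot be told apart. The study calls the samples of a group biological repeats, but no source used here says that they were separate cultures, so the p-values measure only the spread between these samples, which may be technical. Each sample was a bulk culture, in which fewer cells of a type and less RNA per cell cannot be told apart.

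DNA methylation in mammals sits mainly on the cytosine of CpG dinucleotides. Dnmt1, brought to freshly replicated DNA by Uhrf1, copies the pattern onto the new strand, while Dnmt3a and Dnmt3b set methylation at new sites. The Tet proteins oxidise 5-methylcytosine, and Tdg excises the more oxidised products, which are then replaced through base excision repair. 5-Azacytidine enters the DNA of dividing cells and traps DNA methyltransferases on it, and in C3H10T1/2 cells it is the classical inducer of muscle and fat cell formation.

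Levels were given as FPKM (fragments per kilobase of transcript, scaled to library size), and the transcripts of a gene were summed. The FPKM of all mRNAs summed to 343955 and 334568 in the untreated replicates and to 328410 and 361664 in the 5-AZA replicates, and the 10 genes together took 82.3 and 73.6 of these in the untreated and 72.7 and 74.0 in the 5-AZA replicates. The number of reads behind a value is unknown, and a value of exactly 0 is described as listed at 0. Of 14 mesenchymal markers 13 were tested. Limma gave an adjusted p below 0.05 for 9, all but Thy1 under 2-fold, beside 24.5% of all genes tested. The groups did not overlap for 9 with 5-AZA higher and 3 with 5-AZA lower, beside 36.8% and 25.4% of all genes. The surface protein Thy1 alone was called, as higher, and the count was 2 without untreated replicate 1. Vim, the mesenchymal intermediate filament protein, stood at 2268 and 2406 FPKM in the untreated and 1178 and 1380 FPKM in the 5-AZA replicates, with a limma adjusted p of 0.00119 that was above 0.05 without 5-AZA replicate 101 (0.0814), without 102 (0.0619) and with no filter on low values (0.0772), in a range from 0.000179. Col3a1, a fibrillar collagen of mesenchymal cells, stood at 676, 686, 1153 and 1191 FPKM in the same order. The collagen genes Col1a1 (118, 92.4, 64.1 and 83.0 FPKM) and Col1a2 (600, 557, 420 and 475 FPKM) were instead lower in both 5-AZA samples. Of the defining mesenchymal surface markers, Eng stood at 1.72 and 1.52 FPKM in the untreated and 2.53 and 3.29 FPKM in the 5-AZA replicates. Nt5e was listed at 0 in both untreated samples and stood at 0.154 and 0.0824 FPKM in the 5-AZA replicates. Thy1 stood at 0.578 and 0.785 FPKM in the untreated and at 10.4 and 14.2 FPKM in the 5-AZA replicates. Other surface markers of the list were more abundant in the untreated samples. Ly6a stood there at 186 and 181 FPKM and Cd44 at 22.1 and 20.0 FPKM. Pdgfra stood there at 28.9 and 25.5 FPKM and Pdgfrb at 35.5 and 33.2 FPKM. All of these were higher in both 5-AZA samples.

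Of the 10 genes, 9 had a mean of at least 0.1 FPKM and were tested among 13199 genes, and Dnmt3l fell below that limit. A gene was called when limma gave an adjusted p below 0.05 and the change was over 2-fold on the log2(FPKM + 0.1) scale, which understates the change of low genes. Only Tet1 was called, as lower with 5-AZA, beside 14.4% of all genes tested that were called in either direction, 13.1% called higher and 1.32% called lower. The split over all genes, 1724 higher and 174 lower, was 1041 and 886 under quantile normalization, 925 and 52 without 5-AZA replicate 101 and 733 and 70 without 5-AZA replicate 102, and without either of these replicates none of the 9 genes was called. At an unadjusted p below 0.05 the count was 3 of 9 (33.3%), near the 35.5% of all genes tested. The untreated and 5-AZA values did not overlap for 2 of the 9 genes with 5-AZA higher and for 5 with 5-AZA lower, whereas the shares over all genes tested were 36.8% and 25.4%. The median log2 change was -0.19 over the 9 genes and 0.05 over all genes. Centring the samples on their medians moved the latter to -0.06 and quantile normalization moved it to -0.12, with -0.30 and -0.37 for the 9 genes. Without untreated replicate 1 the medians were -0.10 for the 9 genes and 0.09 for all genes. The median over all genes was 0.12 without 5-AZA replicate 101 and -0.026 without 102.

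**Figure D1:**
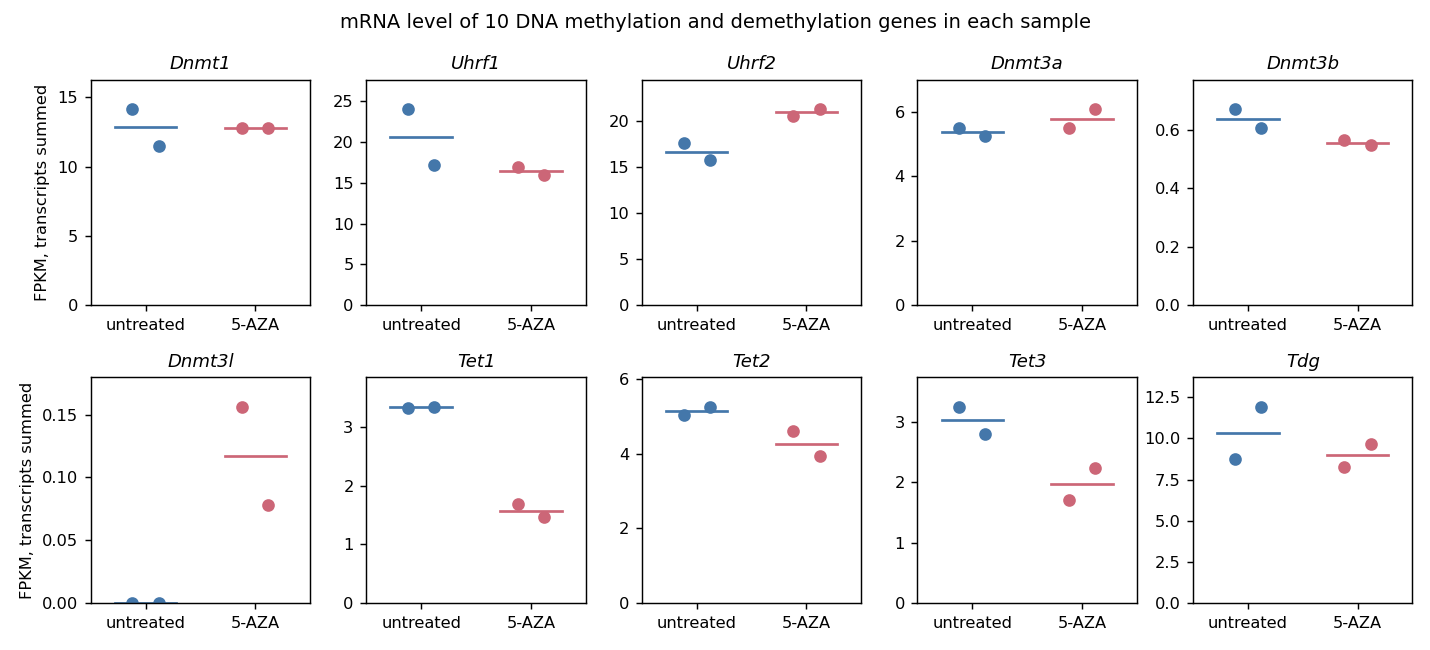
Level of each of the 10 genes in FPKM (vertical axes from 0, one scale per gene) in the 2 untreated and the 2 5-AZA samples. Points are samples and lines are group means; Tet1 falls from 3.33 and 3.34 to 1.68 and 1.46 FPKM, and Dnmt3l is listed at 0 in both untreated samples.

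By mean level over the 4 samples, Uhrf2 (18.8 FPKM) and Uhrf1 (18.6 FPKM) came first and their ranges overlapped. Dnmt1 (12.8 FPKM) lay apart from Uhrf1 and overlapped with Tdg (9.66 FPKM). Dnmt3a (5.57 FPKM) lay apart from Tdg and overlapped with Tet2 (4.71 FPKM). Tet3 (2.50 FPKM) and Tet1 (2.45 FPKM) overlapped with each other and lay apart from Tet2 above and from Dnmt3b (0.597 FPKM) below, and Dnmt3l came last. The maintenance genes were thus present at higher levels per length than the de novo and Tet genes in all 4 samples.

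Dnmt1, the maintenance methyltransferase and the main target that 5-azacytidine traps, stood at 14.1 and 11.5 FPKM in the untreated and at 12.8 and 12.8 FPKM in the 5-AZA replicates. Both 5-AZA samples lay between the untreated ones. The log2 change was 0.00 (SE 0.14, 95% interval -0.31 to 0.31, limma adjusted p = 0.994), which leaves room for a level up to 19.3% lower or 24.2% higher. Of its 7 transcripts, all tested, the most abundant was NM_001199431.1 at 7.96 and 5.61 FPKM in the untreated and 6.81 and 5.34 FPKM in the 5-AZA replicates. Its values overlapped between the groups. NM_001199432.1 stood at 0.272 and 0.438 FPKM in the untreated and 1.04 and 1.38 FPKM in the 5-AZA replicates, with both 5-AZA samples higher. Its limma adjusted p of 0.245 was the lowest among the transcripts of the 10 genes.

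Uhrf1 recognises hemimethylated CpG behind the replication fork and recruits Dnmt1. It stood at 24.1 and 17.3 FPKM in the untreated and at 16.9 and 16.0 FPKM in the 5-AZA replicates. Untreated replicate 1 lay well above the other 3 samples, and the untreated replicate 2 only just above the higher 5-AZA sample. The log2 change was -0.31 (SE 0.16, 95% interval -0.67 to 0.05, limma adjusted p = 0.208), and it was -0.07 without untreated replicate 1 and -0.55 without untreated replicate 2. Over the alternatives the limma adjusted p of Uhrf1 ran from 0.0443 to 0.891, never with a 2-fold change. Uhrf1 per Dnmt1, a ratio of FPKM, was 1.70 and 1.502 in the untreated and 1.33 and 1.25 in the 5-AZA replicates, lower in both 5-AZA samples. An exact two-sided permutation test gave p = 0.333, the smallest that 2 samples against 2 allow.

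Uhrf2, the paralogue of Uhrf1, binds 5-hydroxymethylcytosine and does not replace Uhrf1 in maintenance. It stood at 17.6 and 15.7 FPKM in the untreated and at 20.5 and 21.2 FPKM in the 5-AZA replicates. Both 5-AZA samples were higher than both untreated samples, and this remained so in direction under each scaling of the samples. The log2 change was 0.33 (SE 0.11, 95% interval 0.07 to 0.59, limma adjusted p = 0.0706). Uhrf1 per Uhrf2 was 1.37 and 1.10 in the untreated and 0.825 and 0.751 in the 5-AZA replicates, lower in both 5-AZA samples (exact two-sided permutation p = 0.333). With only curated transcripts the ratio was 1.47, 1.18, 0.918 and 1.16, and with the most abundant transcript of each gene it was 1.07, 0.797, 0.607 and 0.812 and overlapped between the groups. Of the Uhrf2 transcripts, XM_006526603.3 stood at 2.33 and 2.11 FPKM in the untreated and 2.80 and 5.99 FPKM in the 5-AZA replicates, and the curated NM_144873.2 at 14.2, 12.9, 16.5 and 12.6 FPKM in the same order. The latter, also the most abundant, overlapped between the groups, and with it alone the log2 change of Uhrf2 was 0.09. Over the alternatives the limma adjusted p of Uhrf2 ran from 0.0489 to 0.792.

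Maintenance works with replication, so genes of DNA replication and division were set beside it. Over all genes tested, the background for this and the later lists, 14.4% were called. An unadjusted p below 0.05 was found for 35.5% of all genes tested and an adjusted p below 0.05 for 24.5%. None of 20 proliferation genes was called by limma, with 6 at an unadjusted p below 0.05. Of these, 3 (E2f1, Ccna2 and Tk1, named after their values were seen) were lower with an adjusted p below 0.05 but under 2-fold. The adjusted p was below 0.05 in 7 of 14 alternatives for Ccna2 and in 8 each for E2f1 and Tk1. It was above it for all 3 without untreated replicate 1 and without either 5-AZA replicate, and with no filter it was above it for Ccna2 (0.164) and Tk1 (0.136). Over the alternatives the limma adjusted p reached 0.291 for Ccna2, 0.152 for E2f1 (without untreated replicate 2) and 0.255 for Tk1. The values did not overlap for 10 of the 20 with 5-AZA lower and for 1 with 5-AZA higher. The shares over all genes tested were 25.4% and 36.8%. The median log2 change was -0.20 (-0.36 to -0.026 over the alternatives), beside 0.05 over all genes. The 20 genes summed to 371 and 292 FPKM in the untreated and to 289 and 285 FPKM in the 5-AZA replicates, so untreated replicate 1 was high here as it was for Uhrf1, and the part of proliferation in the Uhrf1 values was not tested. The most abundant, the topoisomerase gene Top2a, stood at 61.1, 45.8, 51.9 and 48.5 FPKM, and Birc5, the gene of the mitotic protein survivin, at 32.8, 22.3, 24.8 and 22.2 FPKM. Of 11 tested partners of maintenance, limma called 0, with 2 at an unadjusted p below 0.05, and the median log2 change was -0.10 (-0.21 to 0.0085 over the alternatives). Pcna, the sliding clamp that holds Dnmt1 at the fork, stood at 93.3 and 83.3 FPKM in the untreated and 70.8 and 71.8 FPKM in the 5-AZA replicates, both lower (log2 change -0.31, limma adjusted p = 0.0556, 0.0114 to 0.470 over the alternatives). Hdac2, a histone deacetylase, stood at 68.1, 61.9, 62.1 and 62.5 FPKM and overlapped.

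Start regions of the maintenance genes and of Tet1 are shown because CpG is the substrate of these enzymes. RefSeq start sites of GRCm38.p6 were matched for all 10 genes, with 17 windows of the 250 bases before a start. Over 32851 such windows of all genes the median was 6 CpG and the quartiles were 2 and 16. Below are the whole window of the outermost start of Dnmt1 and of Uhrf1, and for Tet1 the part of its only window that lies outside the annotated span of the gene, which is the part farthest from the start. They are written 5′ to 3′ on the gene's strand with every CpG in capitals, for Dnmt1 (minus strand, chr9:20959889-20960138), Uhrf1 (plus strand, chr17:56303087-56303336) and Tet1 (minus strand, chr10:62887470-62887574). The Dnmt1 and Uhrf1 stretches lie outside annotated genes, and the Tet1 stretch lies within the span of the lncRNA gene Gm51805.
Dnmt1: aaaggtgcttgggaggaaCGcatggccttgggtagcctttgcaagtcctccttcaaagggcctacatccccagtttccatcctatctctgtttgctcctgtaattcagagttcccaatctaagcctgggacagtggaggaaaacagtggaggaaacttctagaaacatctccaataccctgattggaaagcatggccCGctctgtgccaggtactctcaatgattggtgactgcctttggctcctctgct
Uhrf1: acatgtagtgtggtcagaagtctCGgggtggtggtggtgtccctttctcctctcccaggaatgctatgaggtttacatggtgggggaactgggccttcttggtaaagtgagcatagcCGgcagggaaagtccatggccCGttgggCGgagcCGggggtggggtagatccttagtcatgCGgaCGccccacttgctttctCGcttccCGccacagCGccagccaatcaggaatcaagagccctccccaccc
Tet1: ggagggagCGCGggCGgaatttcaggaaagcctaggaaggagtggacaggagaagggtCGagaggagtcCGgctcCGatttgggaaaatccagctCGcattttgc
They hold 2 CpG in 250 bases for Dnmt1, 10 in 250 bases for Uhrf1 and 7 in 105 bases for Tet1, whose whole window held 15. Dnmt1 had further starts inside the gene, whose windows held 7 and 26 CpG, and the other Uhrf1 window held 30. Which of these starts the cells used was not determined. The CpG-richest windows of the 10 genes belonged to Tet2 with 51 and Dnmt3a with 40 and 38, whereas the internal start of Dnmt3a had 15 and the 3 starts of Dnmt3l had 5, 4 and 3. The letters TTTNNCGC, a form of the E2F motif of cell cycle genes, stood on either strand in 3 of the 17 windows, both of Uhrf1 and the innermost of Dnmt1, and in 4.28% of all windows.

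Dnmt3a, one of the enzymes that methylate new sites, stood at 5.48 and 5.24 FPKM in the untreated and at 5.48 and 6.07 FPKM in the 5-AZA replicates. Replicate 101 matched untreated replicate 1 almost exactly, and the log2 change of 0.11 (SE 0.15, 95% interval -0.24 to 0.45, limma adjusted p = 0.671) became 0.00 with the samples centred or quantile normalized. Its transcripts differ in where they start. NM_007872.4, which encodes the full-length protein, stood at 2.22 and 2.93 FPKM in the untreated and 3.16 and 3.13 FPKM in the 5-AZA replicates. It was higher in both 5-AZA samples, but its share of the gene overlapped, at 40.5% and 56.1% in the untreated and 57.6% and 51.5% in the 5-AZA replicates. NM_153743.4, the short form made from the internal start, stood at 1.76 and 0.795 FPKM in the untreated and at 3.53e-04 and 1.47 FPKM in the 5-AZA replicates. The 5-AZA replicates lay at the bottom and near the top of the range, so its level could not be placed by group (limma adjusted p = 0.600), and its log2 change of -1.70 became 0.29 without 5-AZA replicate 101. XM_006514953.3 stood at 0.867, 0.944, 1.59 and 0.969 FPKM, and NM_001271753.1 at 0.625, 0.557, 0.731 and 0.499 FPKM. XM_006514956.3 stayed below the limit for testing at 0.00420 to 0.00710 FPKM.

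Dnmt3b, the other de novo enzyme, stood at 0.671 and 0.605 FPKM in the untreated and at 0.565 and 0.548 FPKM in the 5-AZA replicates. Both 5-AZA samples were slightly lower, with a log2 change of -0.17 (SE 0.28, 95% interval -0.81 to 0.47, limma adjusted p = 0.724). The value turned to 0.11 when only curated transcripts were summed and went to -1.20 with a limma adjusted p of 0.0161, a call, under quantile normalization, in a range of 0.0161 to 0.932 over its alternatives. This low level was spread over 17 transcripts, of which 2 reached the limit for testing and none exceeded 0.287 FPKM in a sample. Dnmt3a per Dnmt3b was 8.16 and 8.65 in the untreated and 9.69 and 11.1 in the 5-AZA replicates, so Dnmt3a was the main de novo methyltransferase mRNA in all samples.

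Dnmt3l has no catalytic activity of its own and stimulates the de novo enzymes, mainly in germ cells and early embryos. It was listed at 0 in both untreated samples and stood at 0.156 and 0.0776 FPKM in the 5-AZA replicates. All 6 transcripts were listed at 0 in both untreated samples and above 0 in both 5-AZA samples, the highest being NM_001284200.1 at 0.0763 and 0.0251 FPKM. The mean lay below the limit for testing. Without that limit limma gave an adjusted p of 0.0906 over 17510 genes.

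Tet1 converts 5-methylcytosine to 5-hydroxymethylcytosine and carries a domain that binds CpG. It stood at 3.33 and 3.34 FPKM in the untreated and at 1.68 and 1.46 FPKM in the 5-AZA replicates. The untreated samples were nearly equal and both 5-AZA samples lay far below them, at 47.1% of the untreated mean. Tet1 fell by 1.04 on the log2 scale (SE 0.20, 95% interval -1.50 to -0.59, limma adjusted p = 0.00523). The call sat close to the 2-fold limit. It was lost with a pseudocount of 1 FPKM (log2 change -0.76, limma adjusted p = 0.00486). Leaving out 5-AZA replicate 101 gave -1.14 with a limma adjusted p of 0.0762, and leaving out 5-AZA replicate 102 gave -0.94 with 0.0959. Over all 14 alternatives the log2 change stayed below 0, from -1.48 to -0.76, with limma adjusted p-values from 0.00336 to 0.351.

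Tet2, which lacks that CpG-binding domain, stood at 5.04 and 5.26 FPKM in the untreated and at 4.60 and 3.94 FPKM in the 5-AZA replicates. Both 5-AZA samples were lower, with a log2 change of -0.27 (SE 0.16, 95% interval -0.64 to 0.10, limma adjusted p = 0.284). The log2 change of Tet2 ran from -0.50 to -0.16 over its alternatives. Tet3, the Tet protein of the oocyte and zygote that many somatic cells also express, stood at 3.26 and 2.81 FPKM in the untreated and at 1.71 and 2.24 FPKM in the 5-AZA replicates. Again both 5-AZA samples were lower, at 65.1% of the untreated mean, with a log2 change of -0.60 (SE 0.22, 95% interval -1.10 to -0.11, limma adjusted p = 0.0784). Over its alternatives the log2 change of Tet3 ran from -1.94 with curated transcripts to -0.42 without 5-AZA replicate 101, and the limma adjusted p from 0.00986 under quantile normalization (-0.95) to 0.317 without untreated replicate 1. All 3 Tet genes were lower with 5-AZA under each scaling of the samples, and whether Tet1 differed from Tet2 or Tet3 in its change was not tested.

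**Figure D2:**
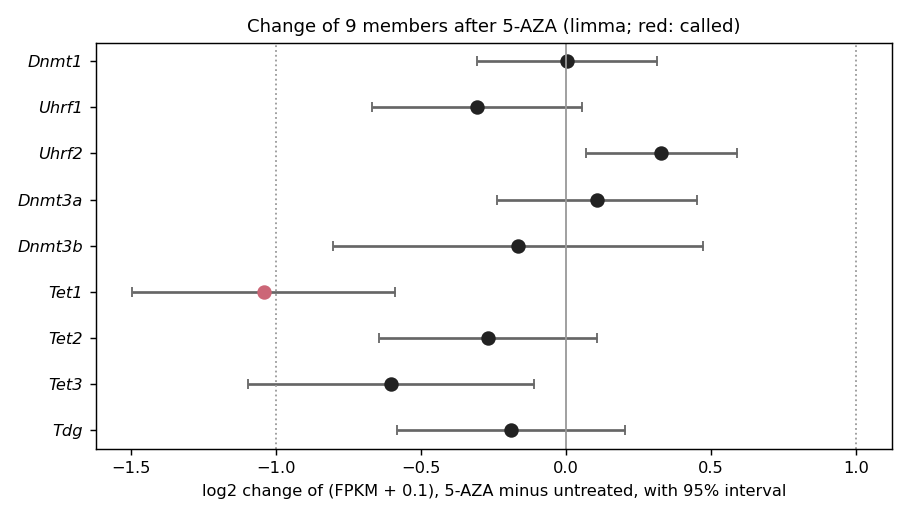
Log2 change of FPKM + 0.1 (horizontal axis, 5-AZA minus untreated, 2 samples per group) with its 95% interval from limma for the 9 genes tested. Dotted lines mark 2-fold and the red point is the called gene; the intervals of Tet1, Tet3 and Uhrf2 lie to one side of 0.

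The Tet genes together summed to 11.6 and 11.4 FPKM in the untreated and to 7.99 and 7.63 FPKM in the 5-AZA replicates. Dnmt1, Dnmt3a and Dnmt3b summed to 20.3 and 17.3 FPKM in the untreated and 18.8 and 19.4 FPKM in the 5-AZA replicates. The Tet sum was lower in both 5-AZA samples whereas the Dnmt sums overlapped. Tet per Dnmt was therefore 0.573 and 0.658 in the untreated and 0.425 and 0.393 in the 5-AZA replicates, a ratio that a common factor for a whole sample cannot move (exact two-sided permutation p = 0.333, the smallest possible). Within the Tet sum, Tet1 took 28.6% and 29.3% in the untreated and 21.1% and 19.08% in the 5-AZA replicates, and Tet2 took 43.4%, 46.1%, 57.6% and 51.6%. With only curated transcripts the ratio was 0.272, 0.354, 0.120 and 0.225, and with the most abundant transcript of each gene it was 0.453, 0.592, 0.172 and 0.442, lower in both 5-AZA samples each time. The share of Tet3 overlapped between the groups, at 28.002%, 24.6%, 21.4% and 29.3%.

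Tet1 was listed with 7 transcripts, of which 5 were tested and none was called. NM_001253857.1 stood at 1.16 and 0.795 FPKM in the untreated and at 0.153 and 0.855 FPKM in the 5-AZA replicates, so that 5-AZA replicate 102 lay between the untreated samples. The other 4 tested transcripts were lower in both 5-AZA samples. XM_011243509.2 stood at 0.652, 1.05, 0.362 and 0.192 FPKM (log2 change -1.34, limma adjusted p = 0.363), and NM_027384.1 at 0.343, 0.462, 0.225 and 0.0340 FPKM. XM_017314027.1 stood at 0.584, 0.492, 0.481 and 0.249 FPKM, and XM_006513867.3 at 0.587, 0.540, 0.462 and 0.121 FPKM. XM_011243508.2 and XM_006513869.3 did not exceed 0.00425 FPKM. The decrease was seen in the sum with less spread than in any single transcript, and the division of the sum among transcripts differed between the 5-AZA replicates. When only curated transcripts were summed, the Tet1 log2 change was -1.10 with a limma adjusted p of 0.147, and with the most abundant transcript alone it was -1.11 with 0.351, the highest of a range over its alternatives from 0.00336.

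**Figure D3:**
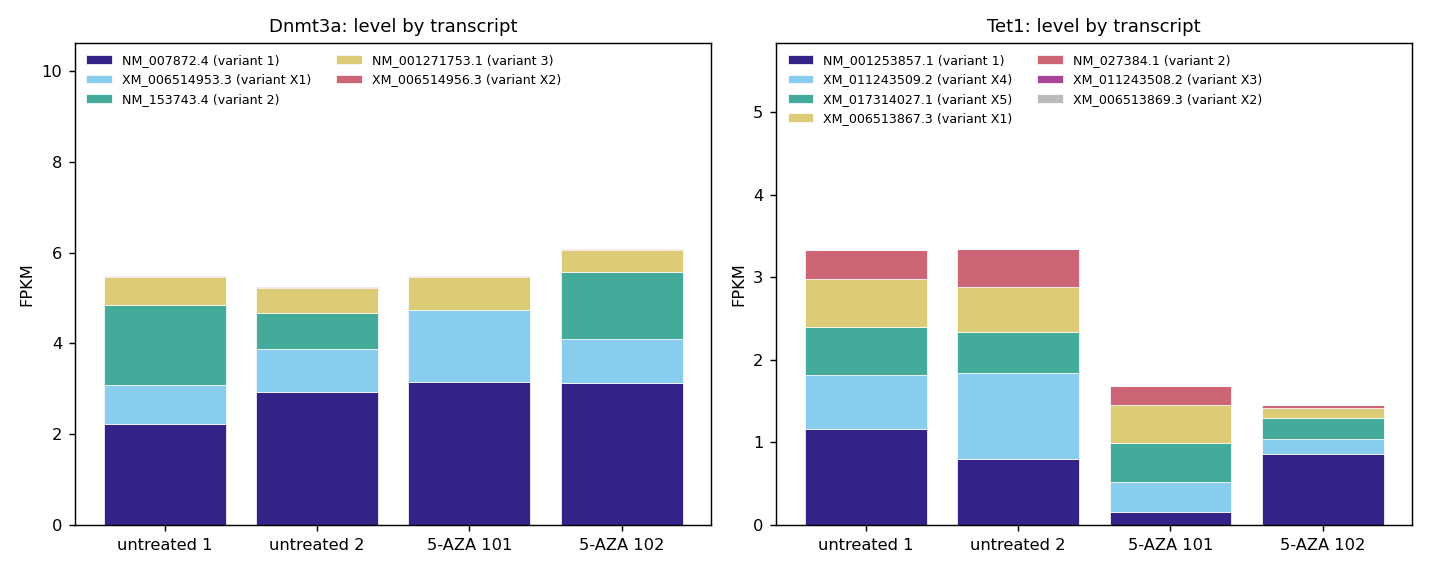
Level in FPKM of each transcript of Dnmt3a (left) and Tet1 (right), stacked, in each of the 4 samples. The Dnmt3a stack keeps its height while NM_153743.4 is nearly missing from 5-AZA replicate 101 at 3.53e-04 FPKM; the Tet1 stacks are lower in both 5-AZA samples, with NM_001253857.1 at 0.153 FPKM in 101 and 0.855 FPKM in 102.

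Across all transcripts of the 10 genes, 41 of 66 were tested and none was called by limma, beside 2.36% of the 35557 transcripts tested, with 1 of the 41 (2.44%) at an unadjusted p below 0.05 against 16.0% of all transcripts. The groups did not overlap for 19 of the 41, 8 with 5-AZA higher and 11 with 5-AZA lower, and for 46.5% of all transcripts. That share was close to the background. The curated Tet3 transcript NM_183138.2 varied widely within the 5-AZA group, at 1.11 and 1.57 FPKM in the untreated and 0.0319 and 0.941 FPKM in the 5-AZA replicates.

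Non-coding transcripts that overlap the genes gave a further reading of each locus. They were placed by GRCm38 gene spans, although the ends of only 18.4% of the 10045 lncRNAs from GENCODE coincide with gene ends of that build, so the placing is uncertain. All lncRNAs summed to 147311 and 150156 FPKM in the untreated and to 169514 and 223173 FPKM in the 5-AZA replicates. There were 27 lncRNAs over 7 of the 10 genes, of which 6 were listed at 0 in all samples and 10 had a mean of at least 0.1 FPKM. All of these 10 lay on the strand of the gene and had a single exon, so they cannot be told apart from unspliced RNA of the gene itself, and their values were described without a test. Over Tet1, NONMMUT005878.2 stood at 0.323 and 0.281 FPKM in the untreated and 0.218 and 0.174 FPKM in the 5-AZA replicates, and NONMMUT005877.2 at 0.233, 0.209, 0.133 and 0.0763 FPKM. Both were lower in both 5-AZA samples, but the share of all lncRNAs with such values was not computed. Over Tet3, NONMMUT057607.2 was likewise lower in both, at 0.728, 0.598, 0.433 and 0.263 FPKM, whereas NONMMUT057609.2 overlapped at 0.708, 1.08, 0.638 and 0.914 FPKM and so did the most abundant there, NONMMUT150511.1, at 3.59, 0.905, 1.72 and 2.79 FPKM. Over Tdg, NONMMUT006541.2 stood at 8.35 FPKM in untreated replicate 1 and at no more than 0.00147 FPKM in the others. Over Uhrf2, NONMMUT034404.2 overlapped at 5.74, 5.17, 5.96 and 4.48 FPKM.

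The genes whose pattern over the 4 samples was closest to Tet1 were Ankrd28, S100a4 and Bdnf, among 10799 genes with a mean of at least 1 FPKM. Closeness was the root-mean-square distance of the centred log2 values, and it was 0.0298, 0.0356 and 0.0509. Ankrd28, a regulatory subunit of a protein phosphatase, stood at 32.3, 32.1, 16.1 and 14.9 FPKM. S100a4, a calcium-binding protein of fibroblasts, stood at 5027, 5002, 2758 and 2355 FPKM. Its log2 change of -0.98 was under 2-fold and ran from -1.09 to -0.37 over its alternatives. Bdnf, a neurotrophin, stood at 25.04, 23.2, 12.2 and 10.3 FPKM. Within a distance of 0.1 there were 18 genes, so the pattern was shared by others.

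Tdg removes 5-formylcytosine and 5-carboxylcytosine, the later products of Tet oxidation. It stood at 8.78 and 11.9 FPKM in the untreated and at 8.29 and 9.66 FPKM in the 5-AZA replicates. The groups overlapped, with untreated replicate 2 the highest. The log2 change was -0.19 (SE 0.17, 95% interval -0.58 to 0.20, limma adjusted p = 0.477), and it was 0.03 without untreated replicate 2. Tdg per Tet sum was 0.755, 1.04, 1.04 and 1.27 and overlapped between the groups.

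Of 12 tested genes of excision and base repair, 1 was called, beside 14.4% of all genes tested. The median log2 change was 0.02, but -0.09 with median centring and -0.23 under quantile normalization. Gadd45a, a stress-induced protein linked to DNA repair, stood at 5.20 and 4.04 FPKM in the untreated and 18.1 and 24.0 FPKM in the 5-AZA replicates. Both 5-AZA samples were far higher, and it rose by 2.16 on the log2 scale (limma adjusted p = 4.56e-05). Its relatives Gadd45g (5.13, 5.61, 8.19 and 11.8 FPKM, log2 change 0.86, limma adjusted p = 0.0102) and Gadd45b (7.07, 8.9997, 10.4 and 13.4 FPKM, log2 change 0.56, limma adjusted p = 0.0466) were higher in both 5-AZA samples by less than 2-fold, and the adjusted p exceeded 0.05 for both without either 5-AZA replicate and with no filter. Their ranges over the alternatives were 0.00454 to 0.135 and 0.0162 to 0.348. It was below 0.05 in 9 of 14 alternatives for Gadd45g and in 2 for Gadd45b, which without untreated replicate 1 had 0.249. Apex1, the endonuclease that cuts at the abasic site, stood at 48.6 and 53.2 FPKM in the untreated and 28.5 and 36.7 FPKM in the 5-AZA replicates. Both 5-AZA samples were lower, by less than 2-fold (log2 change -0.65, limma adjusted p = 0.00778). Its adjusted p was 0.126 with no filter, 0.0709 without the eBayes trend, 0.112 without 5-AZA replicate 101 and 0.0637 without 102, in a range from 0.00381. Polb, the polymerase that fills the gap, overlapped at 14.6, 13.5, 12.8 and 16.2 FPKM. Of 3 tested genes of the cytidine deaminase family, 2 were called higher. Apobec2 reached the limit for testing only through the 5-AZA samples, so its call is a description. Apobec2, a muscle member of that family, was listed at 0 in untreated replicate 1. It stood at 0.124, 5.99 and 5.98 FPKM in the others and rose by 5.35 on the log2 scale (limma adjusted p = 1.83e-05). The rise was 2.72 with a pseudocount of 1 FPKM and 7.36 with 0.01 FPKM. Apobec1, a deaminase that edits mRNA, stood at 1.06, 1.16, 2.58 and 3.18 FPKM and rose by 1.30 (limma adjusted p = 0.00290), whereas Apobec3, an antiviral deaminase, overlapped at 11.4, 10.2, 9.79 and 11.3 FPKM. None of these 3 calls held without 5-AZA replicate 101, where the limma adjusted p-values were 0.0541 for Gadd45a, 0.0745 for Apobec2 and 0.0695 for Apobec1, or without 5-AZA replicate 102, where they were 0.0672, 0.0747 and 0.0931. Without untreated replicate 1 the count in the repair list was 2. Apobec1 was also lost with a pseudocount of 1 FPKM, with no filter, under quantile normalization and with the most abundant transcript only. Over all alternatives these p-values ran from 2.87e-10 to 0.0672 for Gadd45a, from 3.64e-14 to 0.0747 for Apobec2 and from 0.00170 to 0.0931 for Apobec1.

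Methyl-CpG readers carry the methylation state to chromatin complexes. Limma called 0 of 8, with 3 at an unadjusted p below 0.05. The median log2 change was 0.18, but -0.25 with curated transcripts only and 0.01 under quantile normalization. The count of readers called higher was 1 without untreated replicate 1. Mbd2, a reader that recruits the NuRD complex, stood at 28.9, 26.9, 31.5 and 38.3 FPKM, higher in both 5-AZA samples (log2 change 0.32, limma adjusted p = 0.0978, 0.0452 to 0.393 over the alternatives). Zbtb33, also known as Kaiso, stood at 11.7, 13.1, 9.77 and 9.67 FPKM, lower in both (log2 change -0.35, limma adjusted p = 0.0822, 0.0346 to 0.464 over the alternatives). Of 7 tested binders of unmethylated CpG limma called 0, with 1 at an unadjusted p below 0.05 and a median of -0.05 (-0.22 to 0.045 over the alternatives). Cxxc5, a CXXC-domain protein, stood at 10.3, 9.49, 15.05 and 15.2 FPKM, higher in both 5-AZA samples by less than 2-fold (log2 change 0.61, limma adjusted p = 0.00603, 0.00417 to 0.934 over the alternatives), and the demethylase gene Kdm2a overlapped at 15.4, 15.01, 14.0 and 15.4 FPKM. The adjusted p of Cxxc5 exceeded 0.05 without untreated replicate 2 (0.0532), without 5-AZA replicate 101 (0.0937) and without 102 (0.101). With only curated transcripts its log2 change was -0.07, and 1 methyl-CpG reader was called lower.

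The supply of cofactors and methyl groups was read from a pair of lists. Of 10 genes of Tet cofactor supply and partners limma called 0, with 3 at an unadjusted p below 0.05, and the median log2 change was 0.02 (-0.088 to 0.11 over the alternatives). Idh1, which makes 2-oxoglutarate, stood at 84.6, 89.9, 76.2 and 84.0 FPKM, and Sdha, which consumes succinate, at 68.1, 64.1, 75.7 and 94.0 FPKM. The first was slightly lower and the second slightly higher in both 5-AZA samples. Limma gave an adjusted p below 0.05 for 2 genes, both under 2-fold and named after their values were seen. Idh2, the mitochondrial relative of Idh1, stood at 82.2, 84.3, 52.7 and 56.3 FPKM (log2 change -0.61, limma adjusted p = 0.00166, 0.000933 to 0.0510 over its alternatives). Idh3a, a subunit of another mitochondrial isocitrate dehydrogenase, stood at 12.4, 10.9, 19.8 and 23.2 FPKM (log2 change 0.88, limma adjusted p = 0.00136, 0.000334 to 0.0982 over its alternatives). For Idh2 the adjusted p exceeded 0.05 without 5-AZA replicate 101 (0.0510), and for Idh3a without 101 (0.0726), without 102 (0.0982) and with no filter (0.0547). Of 13 tested genes of the methyl donor cycle limma called 0, with 2 at an unadjusted p below 0.05, and the median was 0.05 (-0.18 to 0.10 over the alternatives). Under quantile normalization 1 of them was called lower. Mat2a, which makes S-adenosylmethionine, stood at 67.2, 69.0, 69.3 and 71.9 FPKM, and its regulatory subunit Mat2b at 35.4, 34.3, 30.8 and 32.0 FPKM, and neither was called.

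**Figure D4:**
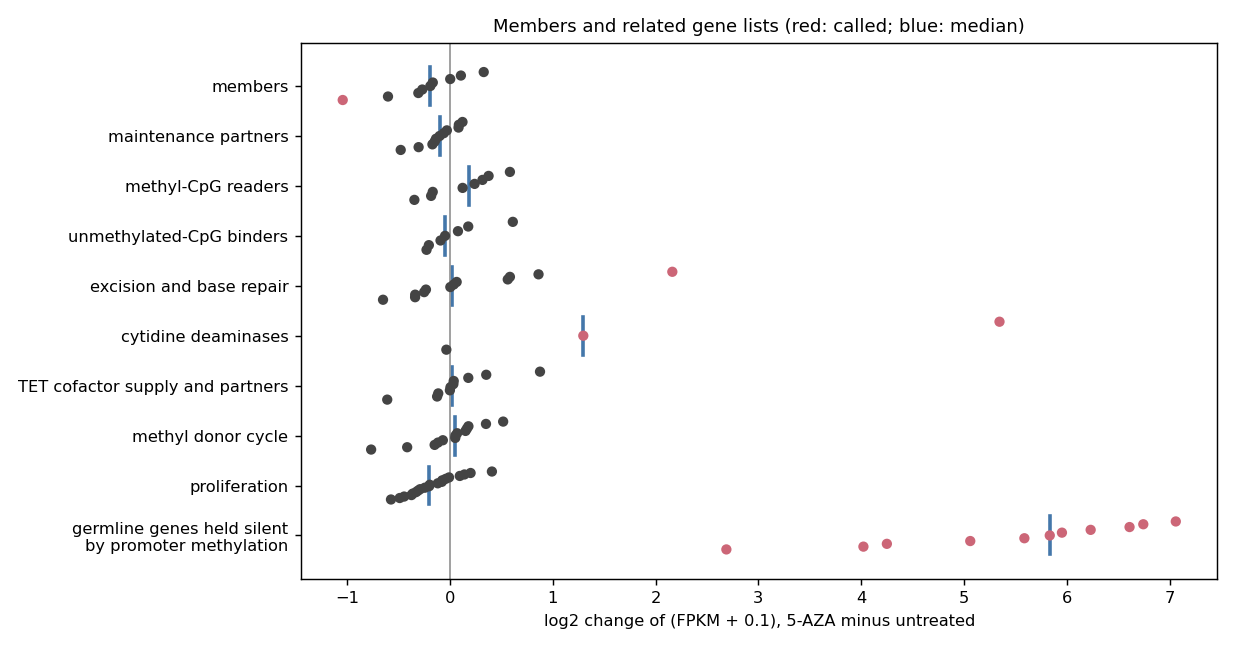
Log2 change of FPKM + 0.1 (horizontal axis, 5-AZA minus untreated) of each tested gene among the 10 genes (top row) and in 9 related lists. Each point is a gene, red if called, and the blue line is the median; most genes lie near 0, and the 11 tested germline genes lie between 2.69 and 7.06.

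RNA of germline genes whose promoters are methylated in somatic cells was read next, though the methylation of these promoters was not measured. Of 13, 11 were tested and 11 were called higher, with a median log2 change of 5.83, while Mael and Tdrd1 lay below the limit. All but Rhox5 reached the limit for testing only through the 5-AZA samples, so the count cannot serve as support, and under the alternatives 9 to 11 were called. The median log2 change was 2.72 with a pseudocount of 1 FPKM and 8.16 with 0.01 FPKM, so its size depends on the pseudocount. Rhox5, a homeobox gene of the male germline, stood at 0.286 and 0.440 FPKM in the untreated and 39.7 and 50.0 FPKM in the 5-AZA replicates (log2 change 6.61, limma adjusted p = 3.13e-07). Sycp3, a synaptonemal complex protein, was listed at 0 in untreated replicate 1 and stood at 0.0426, 14.3 and 17.5 FPKM in the others (log2 change 7.06, limma adjusted p = 7.62e-07). Tex19.1 stood at 0.0443, 0.0425, 13.9 and 16.7 FPKM (log2 change 6.74, limma adjusted p = 4.44e-07). With pseudocounts of 1 and 0.01 FPKM the log2 change was 4.04 and 9.43 for Sycp3 and 3.96 and 8.16 for Tex19.1. For Rhox5 it was 5.06 and 6.93. The 13 genes summed to 0.469 and 0.634 FPKM in the untreated and to 98.9 and 124 FPKM in the 5-AZA replicates. Dnmt3l, another germline gene, stood at no more than 0.156 FPKM in the same samples. Of 8 germ and pluripotent cell markers, 6 were listed at 0 in all samples and none was tested. The highest, Prdm1, a repressor that specifies germ cells, reached 0.0181 FPKM in 5-AZA replicate 102, and Nanog did not exceed 5.86e-08 FPKM.

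Marker RNAs of several cell types differed in level between the groups, and their part in the Tet1 values was not tested. Of 12 skeletal muscle markers 11 had values, 9 were tested and 9 were called higher, but 6 of these reached the limit for testing only through the 5-AZA samples, so the count is a description. It was 8 to 9 over the alternatives, and Myod1 lost its call with a pseudocount of 1 FPKM (log2 change 0.88) and with no filter. The markers summed to 1.23 and 0.902 FPKM in the untreated and to 466 and 736 FPKM in the 5-AZA replicates. The most abundant, the actin gene Acta1, stood at 0.369, 0.211, 182 and 312 FPKM, and the troponin genes Tnnt3 and Tnni2 followed. Of the muscle regulators, Myod1 was listed at 0 in both untreated samples and stood at 0.512 and 1.23 FPKM in the 5-AZA replicates, Myog stood at 0.0806, 0.101, 33.0 and 52.4 FPKM, and Myf5 and Myf6 were listed at 0 throughout. Of 8 adipocyte markers 7 were called higher, of which Cidec was tested only through the 5-AZA samples, and they summed to 48.4 and 32.8 FPKM in the untreated and 1137 and 1555 FPKM in the 5-AZA replicates. Fabp4, the fatty acid carrier, led with 22.9, 9.66, 887 and 1196 FPKM, followed by Adipoq, and the largest changes were those of Cidec, Retn and Plin1. The adipocyte count was 3 without 5-AZA replicate 101 and 3 without 5-AZA replicate 102, and the call of Retn was also lost with no filter (limma adjusted p = 0.0712, in a range of 1.13e-21 to 0.143).

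Of 10 cardiac markers 4 were tested and 3, Tnnt2, Tnni3 and Myh6, were called higher, while Gata4 was not. Myh6 was tested only through the 5-AZA samples, and its call was lost with a pseudocount of 1 FPKM (log2 change 0.43) and under quantile normalization (0.91). They summed to 2.84, 3.16, 32.0 and 49.7 FPKM, of which Tnnt2 alone gave 0.385, 0.618, 28.3 and 43.1 FPKM, and 5 of the 10 were listed at 0 in all samples. Chondrocyte and osteoblast markers summed to 100.3, 88.5, 24.2 and 31.9 FPKM, with Col2a1 (67.5, 57.1, 4.13 and 6.84 FPKM) and Sox9 called lower and Bglap and Comp called higher, Bglap tested only through the 5-AZA samples. The call of Comp was lost without 5-AZA replicate 102 (limma adjusted p = 0.0739), and that of Tnni3 too (limma adjusted p = 0.0585). With no filter on low values limma gave 0.0617 for Comp, 0.106 for Tnni3 and 0.0722 for Sox9, so these calls were lost there, and the chondrocyte and osteoblast list then held 1 called higher and 1 called lower. Over their alternatives the limma adjusted p-values ran from 0.000128 to 0.0739 for Comp, from 3.17e-05 to 0.0722 for Sox9 and from 2.97e-05 to 0.106 for Tnni3. Immune cell markers summed to 2.13, 3.20, 3.27 and 5.20 FPKM, with 3 of 8 listed at 0 in all samples. Their most abundant gene, Cd68, was called higher at 1.16, 1.47, 2.27 and 3.69 FPKM, a call lost without untreated replicate 1 and without either 5-AZA replicate (log2 change 0.94, 1.43 and 0.75 without 1, 101 and 102). It held in 4 of 14 alternatives, with limma adjusted p-values from 0.00565 to 0.197, and Lyz2 overlapped.

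Circular RNAs gave little to compare. Of 4295 circRNAs, 3 came from the 10 genes, each was detected in a single sample, as were 68.3% of all circRNAs, and none was among the 1360 detected in at least 2 samples and tested. The circRNA of Tet1 (circRNA_0408, minus strand, chr10:62832894-62840378, 2388 bases) stood at 0.0319 RPM (back-splice reads scaled to library size) in 5-AZA replicate 102. The intronic circRNA of Dnmt3a (circRNA_0793, plus strand, chr12:3823256-3823810) stood at 0.0215 RPM in 5-AZA replicate 101, and the exonic circRNA of Uhrf2 (circRNA_2216, plus strand, chr19:30039064-30039297) at 0.0215 RPM in untreated replicate 1. The smallest value above 0 in the samples was 0.0213 to 0.0215 RPM, so these lie at or near the limit of detection. The positions are those of the deposited tables. Ends of 69.7% of the host transcripts of circRNAs coincide with gene ends of GRCm38, and the build was not settled.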

How the data were processed

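RNA of 2 untreated and 2 5-AZA samples was analysed. The authors deposited FPKM per transcript for mRNAs and lncRNAs and RPM per circRNA. The submitters' processing notes name Trimmomatic, HISAT2, Bowtie2 2.2.9, eXpress 1.5.1 and the build mm9, without role or order. Ends of 69.7% of the 2431 host transcripts of circRNAs coincide with gene ends of GRCm38, and of 18.4% of the 10045 lncRNAs from GENCODE. GRCm38 gene spans were used, and the build was not settled. FPKM are model estimates with values below 1e-10, so depth is unknown and the precision of a single value cannot be given.

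Log2(FPKM + 0.1) of summed transcripts, and of single transcripts, was fitted in R 4.3.3 by limma 3.58.1 with lmFit and a trended eBayes. Transcripts or genes whose mean fell below 0.1 FPKM were left out. Tests were two-sided, with Benjamini-Hochberg adjustment over all features tested. For circRNAs the pseudocount was 0.0213 RPM. Files were read with the data.table package (version 1.17.8) and described with Python 3.11.15 and pandas 2.3.3; figures used matplotlib 3.10.9. The code was tested on simulated data. Alternatives were other pseudocounts, filters, scalings, transcript choices and leaving out each sample.

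The members and lists were chosen with earlier results of these data known. Named genes are all members, the 3 called genes with the largest change and the 2 with the highest mean FPKM of each list, and the 3 genes nearest in pattern to a called member; other names complete a small count or a marker check and were chosen after their values were seen. Sequences are from RefSeq (GRCm38.p6).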

Additional observations from a re-analysis of the deposited data

Results flagged for a closer look

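CircRNAs of Tet1 and Dnmt3a, which were not among those tested, were each detected in a single 5-AZA sample, at or near the limit of detection, with both listed at 0 in the untreated samples. The circRNA of Uhrf2 stood at 0.0215 RPM in untreated replicate 1 and was listed at 0 in the other samples. Of all circRNAs, 68.3% were detected in a single sample. The circRNA of Tet1 stood at 0.0319 RPM in 5-AZA replicate 102, and the circRNA of Dnmt3a at 0.0215 RPM in 5-AZA replicate 101. Each was listed at 0 in the other 5-AZA replicate, and neither difference was tested.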

How the results depend on the processing

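The called genes numbered 1724 higher and 174 lower. They were 875 and 86 with a pseudocount of 1 FPKM and 1041 and 886 with quantile normalization; 83 were lower with no filter and 845 higher with a filter at a mean of 1 FPKM. Leaving out a sample gave 733 to 1617 higher and 52 to 184 lower. Of the 10 genes, 1 was called; this was 0 with a pseudocount of 1 FPKM, with curated transcripts or with the most abundant transcript, 2 with quantile normalization, and 0 to 1 with a sample left out. Transcripts called were 745 higher and 93 lower. The lower count was 60 with a pseudocount of 0.01 FPKM, 164 with median centring and 51 without the eBayes trend; with no filter limma called 0 in both directions (5608 and 2646 at an unadjusted p below 0.05). Leaving out a sample gave 0 to 175 higher and 0 to 2 lower, with both at 0 without either 5-AZA replicate. CircRNAs called were 0 (limma, 251 at an unadjusted p below 0.05) and 3 with no filter. Some log2 changes, none of a called gene, turned sign. With median centring they were -0.11 for Dnmt1, -0.0011 for Dnmt3a, -0.056 for Mat2a, -0.071 for Polb and -0.10 for NM_001271753.1. With quantile normalization they were -0.066 for Dnmt1, -0.0045 for Dnmt3a, -0.11 for Gata4, -0.010 for Mat2a, -0.034 for Polb and -0.14 for NM_001271753.1, and scaling to an equal sum gave -0.021 for Dnmt1. Curated transcripts gave -0.037 for Dnmt1, 0.11 for Dnmt3b and -0.067 for Cxxc5. The most abundant transcript gave -0.15 for Dnmt1, 0.18 for Dnmt3b, 0.072 for Tdg and -0.13 for Gata4. With a sample left out the ranges were -0.15 to 0.15 for Dnmt1, -0.41 to 0.027 for Tdg, -0.14 to 0.069 for Apobec3, -0.48 to 0.073 for Birc5, -0.084 to 0.51 for Gata4, -0.13 to 0.0085 for Hdac2, -0.12 to 0.020 for Kdm2a, -0.62 to 0.17 for Lyz2, -0.13 to 0.20 for Polb, -0.28 to 0.13 for Top2a, -0.21 to 0.27 for NM_001271753.1 and -3.69 to 0.29 for NM_153743.4. The cause was not tested. With a sample left out, the lone sample of a group is assumed to vary like the other group. Of the other values under alternatives, 1416 kept direction and side of the threshold or moved by less than the replicate spread, 46 lost a call, 2 gained one and 114 moved further. No paired analysis was possible because the groups share no replicate number. An edgeR fit of circRNA reads was not run, since whole reads could not be recovered. Read depth is unknown, so low values such as those of Dnmt3b and Dnmt3l have no known counting error.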
